A study of Mus musculus with 4 samples.

Results

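Pou5f1 (the gene of Oct4), Nanog, Sox2, Sall4 and Zfp42 (the gene of Rex1) were followed in mouse E14 embryonic stem cells given valproic acid (VPA). The members were taken by name, as probe sets whose platform annotation gives that symbol and no other. All 5 were found, each with 1 probe set, among 19938 genes so represented on the array. No probe set with several symbols held any of them, so there was no second measurement of a member. The study compared 2 arrays of untreated cells with 2 arrays of cells that had 0.5 mM VPA in the medium for 4 h. VPA, a branched-chain fatty acid and a drug, blocks histone deacetylases, and the comparison asks how a low dose alters transcript levels within hours. Both groups grew on embryonic fibroblasts whose division had been blocked with mitomycin-C, in medium with 15% serum and leukemia inhibitory factor. RNA of the feeder cells can therefore be part of every sample, and E14 is a single cell line.

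The 5 genes encode transcription factors of the pluripotency network. Oct4, a POU-domain protein, and Sox2, a protein with a high mobility group domain, bind DNA side by side at many enhancers, and the homeodomain protein Nanog binds many of the same places. Sall4 is a zinc finger protein that activates Pou5f1 and also associates with the NuRD complex, which contains histone deacetylases. Rex1 is a zinc finger protein related to Yy1, and its loss marks the exit of embryonic stem cells from the naive state. Oct4 and Sox2 act on the promoters or enhancers of several of these genes, their own included.

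Promoter windows of the RefSeq annotation are shown for the members that hold the joined Sox and Oct element or the octamer, and for Sox2, the member with a higher mean after VPA. Each is the run of 250 bases before an annotated start, 5′ to 3′ on the strand of the gene. Pou5f1 and Nanog have 2 windows each, Sox2 and Zfp42 have 1, and the promoter of Sall4 was not analysed here. Capitals mark the joined element in Nanog and the octamer in Zfp42, and in Sox2 they mark the GC boxes.
Nanog, chr6:122707239-122707488, plus strand, GRCm38.p6: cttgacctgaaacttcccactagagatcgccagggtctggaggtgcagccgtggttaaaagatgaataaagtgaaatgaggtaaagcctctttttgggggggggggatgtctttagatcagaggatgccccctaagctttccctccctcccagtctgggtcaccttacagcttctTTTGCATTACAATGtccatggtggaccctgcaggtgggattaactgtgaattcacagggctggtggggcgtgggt
Zfp42, chr8:43307010-43307259, minus strand, GRCm38.p6: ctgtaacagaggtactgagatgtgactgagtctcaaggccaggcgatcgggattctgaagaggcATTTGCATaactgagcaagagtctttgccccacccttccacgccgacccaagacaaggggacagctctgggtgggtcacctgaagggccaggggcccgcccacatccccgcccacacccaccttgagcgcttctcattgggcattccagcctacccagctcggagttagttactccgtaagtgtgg
Sox2, chr3:34649745-34649994, plus strand, GRCm38.p6: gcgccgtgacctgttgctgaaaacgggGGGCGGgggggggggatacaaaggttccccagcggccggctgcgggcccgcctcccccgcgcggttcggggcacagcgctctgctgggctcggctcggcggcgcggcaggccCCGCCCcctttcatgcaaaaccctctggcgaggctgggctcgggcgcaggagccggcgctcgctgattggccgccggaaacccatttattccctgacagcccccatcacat

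The joined element was searched on both strands as the Sox core CATTGT, any base and then ATGCAAA, and in Nanog it lay on the opposite strand, from 75 to 62 bases before the start. Of 27025 genes with a window, 1 held it, which was Nanog, in both of its windows. Only exact matches within 250 bases were counted, so looser forms of the element and sites elsewhere, such as enhancers, were not searched. The count therefore does not show that such elements are particular to Nanog. The octamer ATGCAAAT was found in 1.81% of genes with a window, among them Zfp42, where it lay from 186 to 179 bases before the start. The Sox core CATTGT, which is also part of the joined element, was in 12.2% of genes and the GC box GGGCGG in 35.4%. Sox2 held 2 GC boxes, Zfp42 held 2 and the first window of Pou5f1 held 1. The Sox2 window also held ATGCAAA, the Oct part of the joined element, without the last letter of the octamer. How many genes hold this shorter run was not counted. The second window of Pou5f1 held a Sox core. Among measured genes, the 279 with an octamer had a median log2 difference of −0.0049 after VPA and 52.0% of them had a lower mean. Over all 15614 measured genes with a window the median was 0.018 and 45.4% had a lower mean. A match is a description of letters, and binding was not measured here.

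After VPA, Nanog, Sall4 and Zfp42 lay below both untreated arrays on both treated arrays. Nanog had 0.717 of its untreated signal (95% interval 0.555 to 0.925), Sall4 0.740 (0.603 to 0.909) and Zfp42 0.830 (0.643 to 1.07). Pou5f1, at 0.924 (0.718 to 1.19), and Sox2, at 1.15 (0.817 to 1.62), overlapped between the groups. None of the 5 passed the test over all 35556 probe sets, where limma with Benjamini-Hochberg adjustment called 0 (0.0%). Before adjustment, 1220 probe sets were lower and 2049 higher at p under 0.05. The array differences given from here on are log2 differences, VPA minus untreated, and errors are SE of the fit unless named SD.

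**Figure D1:**
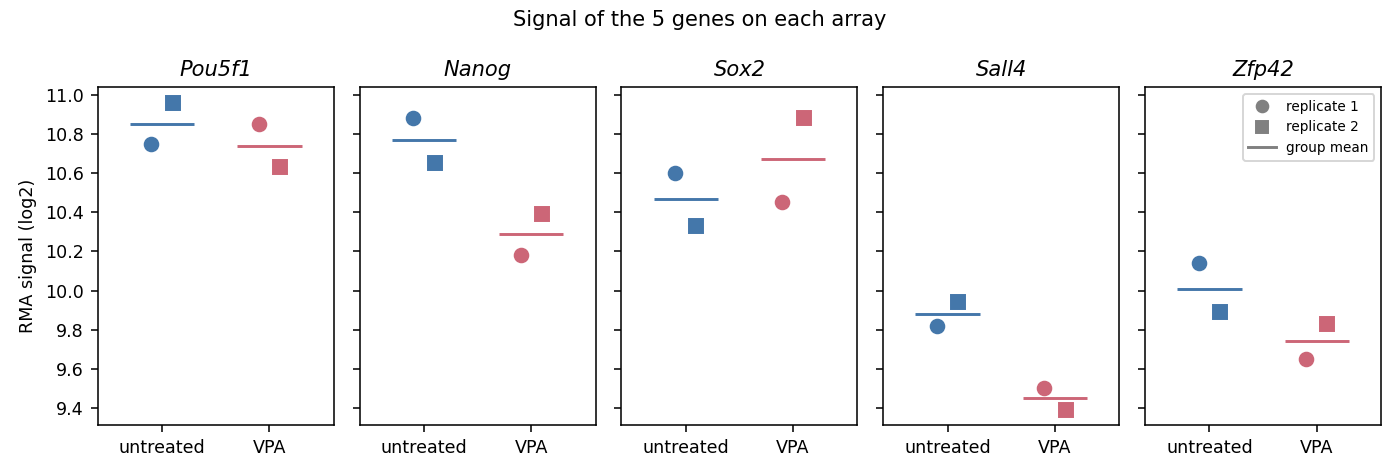
RMA signal (log2, vertical axis) of the 5 genes on the 2 untreated (blue) and 2 VPA arrays (red), with circles for replicate 1, squares for replicate 2 and a line at the group mean. Nanog, Sall4 and Zfp42 show no overlap between the groups, while Pou5f1 and Sox2 do; heights of different genes depend on their probes and are not comparable.

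Before VPA all 5 genes were among the brightest signals of the array. Their untreated means lay between the 97.9th (Sall4) and the 99.3rd percentile (Pou5f1) of the represented genes. A percentile of this kind also depends on how well each gene's probes bind, so the members were not ranked against each other. Of the other stem cell markers 15 of 15 were measured, and they were bright as well, with a median percentile of 96.4 and a lowest of 89.3, for Fgf4.

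Nanog (probe set 10541524) read 10.88 and 10.65 on the untreated arrays and 10.18 and 10.39 on the VPA arrays. Each treated array was below each untreated array, by between 0.26 and 0.70. The means were 10.77 ± 0.158 and 10.29 ± 0.150 (SD, n = 2), a log2 difference of −0.48 ± 0.142. The limma p was 0.0203 and the adjusted p 0.503, with 4.03% of all probe sets at a smaller p. Arrays of a group were 0.224 apart in untreated and 0.213 in VPA cells, which is less than the difference between the means.

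Sall4 (10490016) read 9.82 and 9.94 without VPA and 9.5 and 9.39 with it. Here too every treated array was below every untreated one, with gaps from 0.32 to 0.55. The means of 9.88 ± 0.087 and 9.45 ± 0.0716 (SD, n = 2) differed by −0.43 ± 0.115, with a limma p of 0.0133 and an adjusted p of 0.485. It had the smallest p and the closest replicates of the 5, 0.123 apart in untreated and 0.101 in VPA cells.

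Zfp42 (10578401) read 10.14 and 9.89 in untreated cells and 9.65 and 9.83 in VPA cells. The groups did not overlap, but the higher treated array was only 0.05 under the lower untreated one. The mean moved from 10.01 ± 0.177 to 9.74 ± 0.130 (SD, n = 2), a difference of −0.27 ± 0.143 with a limma p of 0.119 and an adjusted p of 0.624. The untreated arrays were 0.250 apart, close to the size of the difference.

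Pou5f1 (10444853) read 10.75 and 10.96 without VPA and 10.85 and 10.63 with it, so that the groups interleaved. Its difference of −0.11 ± 0.141 (95% interval −0.48 to 0.25) was smaller than the distance between replicates, 0.203 and 0.225. The limma p was 0.458 and the adjusted p 0.847. The interval reaches from a fall to 0.718 of the untreated signal to a rise to 1.19, so a difference of the size found for Sall4 lay inside it.

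Sox2 (10491477) was the only one of the 5 with a higher mean after VPA. Its untreated arrays read 10.60 and 10.33 and its VPA arrays 10.45 and 10.88, so VPA replicate 1 lay between the untreated values. The difference was 0.20 ± 0.191 (95% interval −0.29 to 0.69), with a limma p of 0.342 and an adjusted p of 0.789. Its treated replicates were 0.427 apart, the widest gap in this set, against a 90th percentile of 0.316 over all represented genes. The sign rests on VPA replicate 2: without it the difference was −0.0127, and without VPA replicate 1 it was 0.41.

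**Figure D2:**
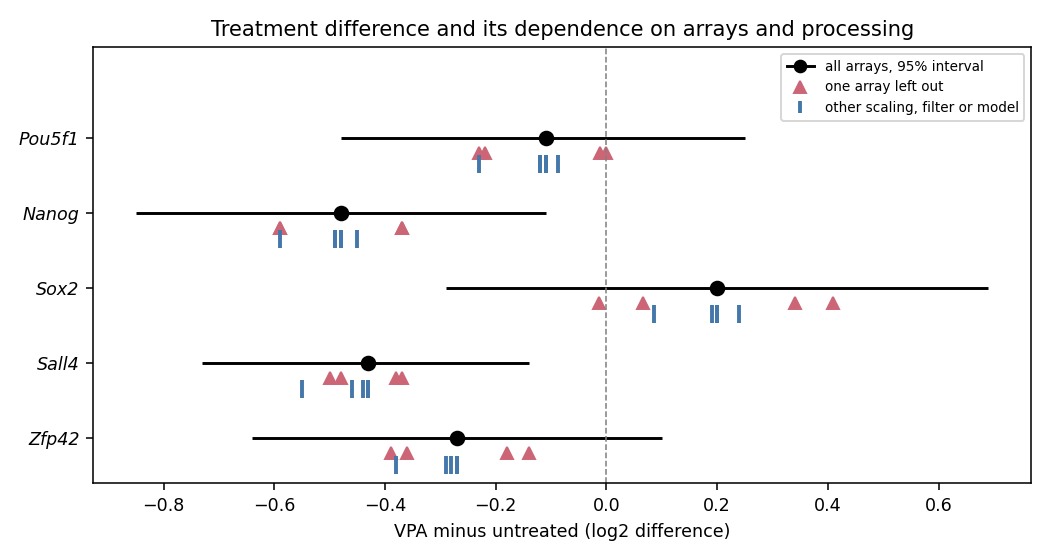
Log2 difference, VPA minus untreated (horizontal axis), of each gene with its 95% interval (black), the values with 1 array left out (triangles) and those under other scalings, filters or models (bars). Nanog and Sall4 stay at or below −0.37 throughout, and Sox2 spans −0.0127 to 0.41.

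Counted together, 4 of the 5 members had a lower mean with VPA, where 48.2% of all probe sets did. Without overlap between the groups, 3 of 5 were lower and 0 higher, where 18.7% of all probe sets were lower and 21.7% higher. Before adjustment, Nanog and Sall4 were lower at p under 0.05 and no member was higher, where 3.43% of all probe sets were lower and 5.76% higher. Among the 377 represented genes with a mean log2 signal of at least 10, the corresponding shares were 44.8% with a lower mean, 18.8% lower without overlap and 2.12% lower at that p. Sall4 and Zfp42 averaged under 10 over the arrays and were not among these genes. The median difference of the 5 was −0.27, against 0.015 over all represented genes and 0.018 over those 377. Nanog, Sall4 and Zfp42 were also without overlap under every other scaling tried. The filter, the other models and leaving out an array could not have changed that, since they keep the same signal values. Without untreated replicate 1 or without VPA replicate 1, Pou5f1 was lower and Sox2 higher without overlap too. In those settings 36.7% and 34.2% of all probe sets were lower without overlap.

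The replicates of the members did not deviate alike. Nanog, Sox2 and Zfp42 were higher in untreated replicate 1 than in replicate 2, and lower in VPA replicate 1 than in replicate 2. Pou5f1 and Sall4 went the other way in both groups. Untreated replicate 2 was also lower than the other arrays among bright genes in general. Over the 4086 represented genes with a mean of at least 7, its mean log2 signal was 8.30, against 8.40 to 8.43 on the other arrays. With a cyclic loess scaling between arrays, chosen after seeing this, the differences were −0.49 for Nanog, −0.46 for Sall4, −0.29 for Zfp42, −0.12 for Pou5f1 and 0.19 for Sox2.

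Ratios between members on the same array do not depend on the scaling of an array as a whole, and ask whether the genes changed unequally. All 10 pairs were compared with a two-sided exact permutation test of 2 arrays against 2, which cannot give a p below 0.333. In 5 pairs the ratio did not overlap between the groups, each with p = 0.333 in the exact permutation test and 0.666 after Benjamini-Hochberg adjustment over the 10 pairs. Of single probe sets, 18.7% were lower and 21.7% higher without overlap, whereas the 5 pairs count both directions together. The 10 pairs share members, so they are not separate observations. This design could not have called any pair, whatever the values, so the ratios are given as a description.

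The log2 ratio of Nanog to Sox2 was 0.28 and 0.32 in untreated cells and −0.28 and −0.49 in VPA cells. This shift of −0.68 was the largest of the 10, and the untreated arrays differed by little (SD 0.0318, n = 2). Sox2 over Sall4 went from 0.78 and 0.39 to 0.96 and 1.49, a shift of 0.63 that was 0.37 without VPA replicate 2 and 0.90 without VPA replicate 1. Sox2 over Zfp42 went from 0.47 and 0.45 to 0.81 and 1.05, a shift of 0.47. The ratio of Nanog to Zfp42 was 0.74 and 0.77 without VPA and 0.53 and 0.56 with it. That pair had close replicates in both groups (SD 0.0184 and 0.0206, n = 2), and its shift of −0.21 was small. Pou5f1 over Sall4 moved from 0.93 and 1.01 to 1.36 and 1.23, by 0.32. The remaining pairs, among them Nanog over Sall4 at −0.05, overlapped.

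**Figure D3:**
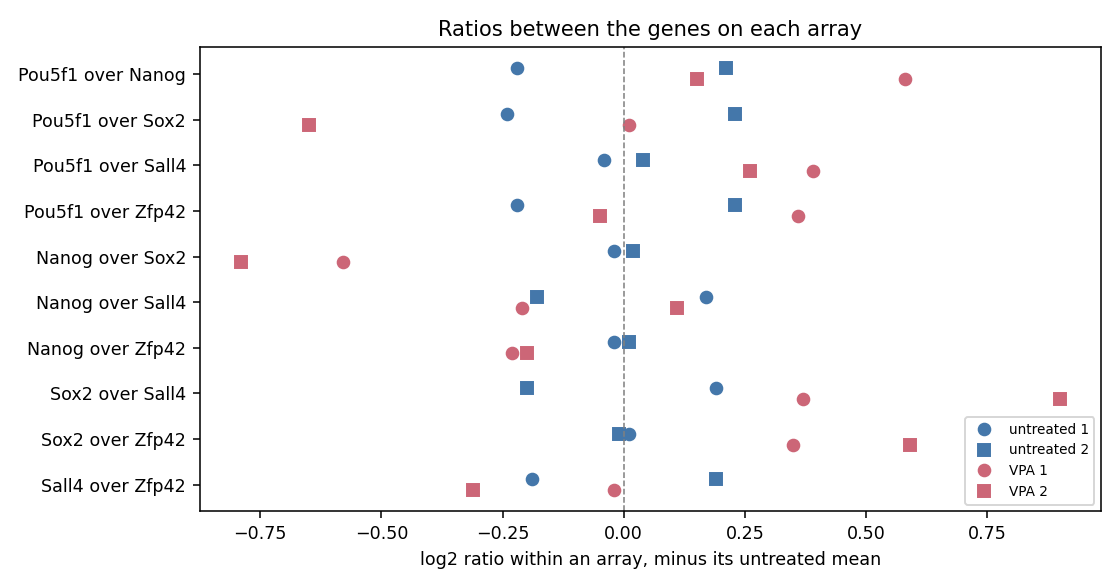
Log2 ratio of 2 members on the same array, minus its untreated mean (horizontal axis), for the 10 pairs, with untreated arrays in blue and VPA arrays in red. The VPA points of Nanog over Sox2 and of Sox2 over Sall4, Sox2 over Zfp42, Nanog over Zfp42 and Pou5f1 over Sall4 lie clear of the untreated points.

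Sall4 has 3 paralogues, all measured. Sall1, also a zinc finger repressor that associates with NuRD, read 8.70 and 8.65 in untreated and 7.95 and 8.14 in VPA cells, a difference of −0.63 ± 0.12 (limma p 0.00345, adjusted p 0.462). Sall3 read 5.84 and 5.80 against 5.19 and 5.46, a difference of −0.50 ± 0.135 (adjusted p 0.487). Sall2 read 4.46 and 4.39 against 4.38 and 4.22, a difference of −0.13 ± 0.118 (adjusted p 0.783). All 4 Sall genes were thus lower without overlap, as were 18.1% of all represented genes. Sall2 was at a low signal and lower by an amount of the order of its SE. Its higher VPA value, 4.38, was just under its lower untreated value, 4.39. Over the 12 settings their differences ranged from −0.75 to −0.54 for Sall1 and from −0.24 to −0.047 for Sall2, and none passed the test. Genes without overlap keep their sign when an array is left out, so only the other scalings could have turned it, and they did not.

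The relatives of the members were POU, SOX, SALL and YY1 family genes, of which 30 of 37 names were measured. Of these 20 had a lower and 10 a higher mean, and 16 were lower and 2 higher without overlap. Over all represented genes 46.3% had a lower mean, and 18.1% were lower and 24.1% higher without overlap. The median difference of the relatives was −0.13. Their median untreated percentile was 49.8, so many of them were at low signals. Pou3f2 and Sox17, at untreated percentiles of 21.0 and 27.1, were among the 16 lower without overlap. Limma called 0 of them, and the 4 with an unadjusted p under 0.05 were all lower, where 2.71% of represented genes were lower and 5.9% higher at that p. Besides Sall1 and Sall3 these 4 were Sox7, at −0.59 ± 0.174, a gene of the endoderm, and Sox21, at −0.45 ± 0.151. The SOX genes nearest to Sox2 in sequence, Sox1 and Sox3, were lower without overlap, at signals between 5.62 and 6.01, below those of Sox2. Sox1 differed by −0.14 ± 0.105 (limma p 0.252) and Sox3 by −0.20 ± 0.139 (limma p 0.219). Sox15, which pairs with Oct4 in embryonic stem cells, differed by 0.0021 ± 0.115. Pou3f1, an Oct gene of the primed epiblast, differed by −0.19 ± 0.132 and Yy1, the relative of Rex1, by −0.12 ± 0.117. Yy2, Pou2f1 and the transcript Sox2ot, within which Sox2 lies, were not analysed here. The Oct4 pseudogene Pou5f1-rs4 had a probe set of its own at 2.84 in untreated and 2.72 in VPA cells, far below the signal of most genes. Whether other near-identical copies share probes with Pou5f1, Nanog or Zfp42 was not tested.

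Partners and targets of the 5 factors were lower on balance as well. Of 43 names 40 were measured, and 30 had a lower and 10 a higher mean, with a median of −0.15. Over all represented genes 46.3% had a lower mean. Without overlap, 19 were lower and 3 higher, where 18.1% of represented genes were lower and 24.1% higher. Limma called 0 of them, and 10 had an unadjusted p under 0.05, of which 9 were lower and 1 was higher. At that p 2.71% of represented genes were lower and 5.9% higher. The smallest p belonged to Mycn, a growth-promoting factor that read 8.83 and 8.81 in untreated and 8.16 and 8.11 in VPA cells. Prdm14, a repressor that guards naive pluripotency, read 5.84 and 5.55 against 4.74 and 4.94. Zscan10, a zinc finger partner of Sox2 and Oct4, went from 8.09 and 8.16 to 7.59 and 7.55, and Foxd3, a repressor that stem cells need for self-renewal, from 6.25 and 6.63 to 5.58 and 5.69. These 4 were chosen by their p. Their differences lay between −0.86 and −0.55, and their adjusted p between 0.462 and 0.472.

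The NuRD and deacetylase genes in that list, which encode partners of Nanog, Oct4 and Sall4, went both ways. Hdac1 was at 0.14 ± 0.108, Hdac2 at 0.19 ± 0.148, Mta2 at 0.18 ± 0.139, Mta1 at −0.37 ± 0.244 and Gatad2a at −0.12 ± 0.146. None had an unadjusted p under 0.05.

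Among the 15 other stem cell markers, 14 of which are also in the network list, 12 had a lower and 3 a higher mean, with a median of −0.19. Those of smallest p after Zscan10 were Utf1, a chromatin factor at −0.33 ± 0.115, the RNA-binding protein gene Lin28a at −0.34 ± 0.117 and the Krüppel-like factor gene Klf2 at −0.26 ± 0.116. Tdgf1, a co-receptor of Nodal, was at 0.12 ± 0.114 and Dppa5a at 0.11 ± 0.132, both with signals above 11 on every array.

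**Figure D4:**
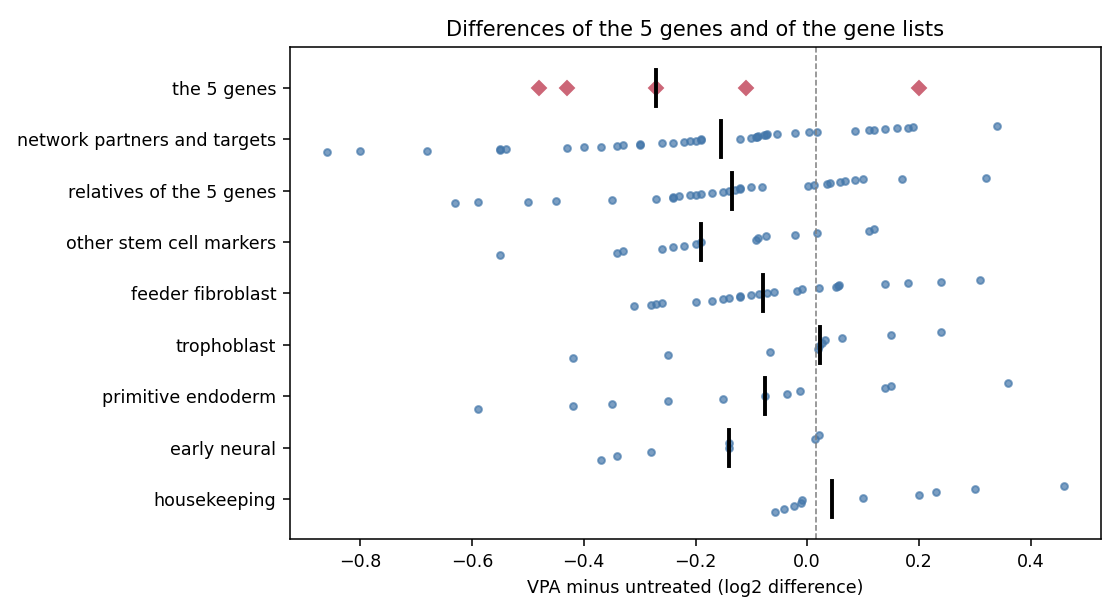
Log2 difference, VPA minus untreated (horizontal axis), of the 5 genes (red diamonds) and of each gene in 8 lists (blue points), with a black bar at the median of each row and a dashed line at the median of all represented genes, 0.015. The network, relative and other stem cell marker lists have medians of −0.15, −0.13 and −0.19, and the housekeeping list one of 0.045.

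Genes of lineages that these factors hold back had medians near or below 0. Oct4 restrains trophoblast genes and Nanog restrains primitive endoderm genes. The trophoblast list had 7 of 10 genes with a higher mean and a median of 0.024, with Krt18 at 0.24 ± 0.124, Ascl2 at 0.15 ± 0.104, Hand1 at −0.25 ± 0.118 and Gata3 at −0.42 ± 0.199. Cdx2, the regulator opposed to Oct4, differed by 0.027 ± 0.117 and Eomes by 0.020 ± 0.106. Of 11 primitive endoderm genes 8 had a lower mean, with a median of −0.075. Gata6, the regulator opposed to Nanog, read 3.64 and 3.77 in untreated and 3.31 and 3.25 in VPA cells, a difference of −0.42 ± 0.112. Dab2 was at 0.36 ± 0.136 and Lama1 at −0.25 ± 0.109. Early neural genes, the lineage in which Sox2 stays on, had 5 of 7 lower means and a median of −0.14, with Pax6 at −0.37 ± 0.107, Tubb3 at −0.34 ± 0.133 and Nes at −0.28 ± 0.196. The median untreated percentiles of these lists were 51.2, 42.5 and 44.5, and limma called 0 genes in each. Gata6 and Pax6 had untreated percentiles of 41.5 and 44.5, so their differences are those of low signals.

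Feeder fibroblast markers were followed because feeder RNA can be in every sample. Of 25 marker names 24 were measured, 16 with a lower and 8 with a higher mean, and a median of −0.079. Their summed signal on the linear scale was 3538 and 3650 in untreated and 3431 and 3470 in VPA cells, without overlap. The 3 brightest markers, Vim, Fn1 and Sparc, made up 77.2% to 77.7% of each sum. Without them, a choice made after seeing the data, the sums over the other 21 were 790 and 819 in untreated and 783 and 774 in VPA cells. RMA gives no gene a value of 0. The defining markers ranged from Lum, at percentile 0.216, to Vim, at 98.5. Vim, Fn1 and Sparc can also be expressed by cells other than fibroblasts, stem cells included. Ccdc80 was at −0.31 ± 0.110, Thy1 at 0.31 ± 0.119, Sparc at −0.26 ± 0.108 and Prrx1 at −0.27 ± 0.137. The part of feeder RNA in the differences of the members was not tested. Less RNA per cell and fewer cells that express a gene cannot be told apart in such bulk samples.

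Of 10 measured housekeeping genes 5 had a lower and 5 a higher mean, with a median of 0.045. The 5 with a higher mean did not overlap between the groups, where 24.1% of represented genes and 33.9% of those with a mean of at least 7 were higher without overlap. Those of smallest p were all higher. Gusb was at 0.30 ± 0.110, the class I light chain gene B2m at 0.46 ± 0.219, Pgk1 at 0.20 ± 0.109 and Tbp at 0.23 ± 0.125. With each array shifted to one housekeeping mean, an alternative chosen after seeing the data, the median of all represented genes was −0.099 and 33.4% of all probe sets were lower without overlap. The differences were then −0.59 for Nanog, −0.55 for Sall4, −0.38 for Zfp42, −0.23 for Pou5f1 and 0.087 for Sox2, and adjusted p lay between 0.512 and 0.870.

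The chromosomal neighbours of the members were looked at after the members' values were known, taking the 3 protein-coding genes on each side in RefSeq order. Of 30 neighbours 28 were measured, and 7 had a lower and 21 a higher mean, with a median of 0.060. Over all represented genes 46.3% had a lower mean and the median was 0.015. Without overlap, 4 neighbours were lower and 8 higher, where 18.1% of represented genes were lower and 24.1% higher. The lowest differences among the neighbours were those of Gdf3 and Dppa3, on one side of Nanog, 2 genes that are also part of the pluripotency programme. Gdf3, which encodes a TGF-beta-type ligand and lies 2 places away, read 9.59 and 9.58 in untreated and 9.11 and 8.96 in VPA cells, a difference of −0.55 ± 0.114 (adjusted p 0.472). Dppa3, next to Nanog, read 4.19 and 3.8 against 3.39 and 3.8, at a low signal and with overlap between the groups. Apobec1, 3 places away on that side, read 3.96 and 4.17 in untreated and 4.79 and 4.47 in VPA cells. Its difference of 0.56 ± 0.161 was thus also at a low signal. Slc2a3, the glucose transporter gene on the other side, differed by 0.15 ± 0.151.

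Tcf19, the gene that follows Pou5f1, read 4.88 and 5.0 in untreated and 5.51 and 5.55 in VPA cells, a difference of 0.60 ± 0.111 (adjusted p 0.462), where Pou5f1 itself overlapped. Beside Sox2, Atp11b was at 0.32 ± 0.163 and Fxr1 at 0.063 ± 0.171. The gene before Sall4, Atp9a, read 6.34 and 6.0 against 6.48 and 6.71, a difference of 0.43 ± 0.167, and Zfp64 on the other side differed by 0.12 ± 0.112. Triml2 and Triml1, next to Zfp42, were at 0.12 ± 0.145 and 0.22 ± 0.109. The neighbours of Sall4 and Zfp42 that lay closest thus had higher means, or means near 0, where the members had lower ones, and no difference between neighbours was tested.

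**Figure D5:**
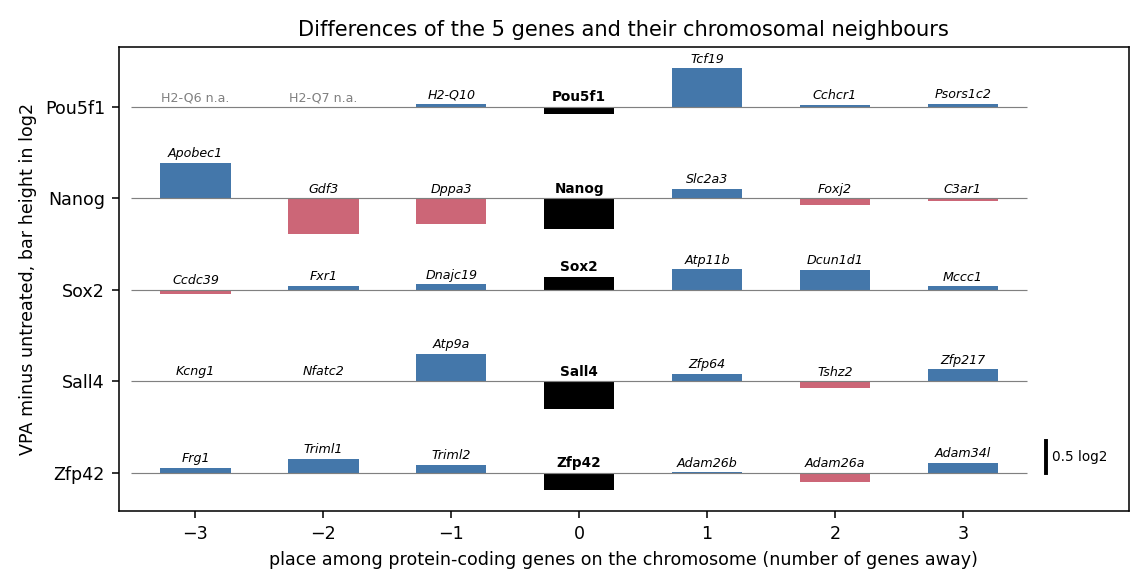
Log2 difference, VPA minus untreated, of each member (black bar, place 0) and of the 3 protein-coding genes before and after it (blue above, red below its line), by place on the chromosome; the scale bar is 0.5 log2 and n.a. marks genes not analysed here. Gdf3 and Dppa3 have lower means beside Nanog, Dppa3 with overlap between the groups, and Tcf19 (0.60) is higher beside Pou5f1.

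Likeness of profile was measured as the root mean square distance between log2 values centred on each gene's mean, over the 4 arrays and 4085 other genes with a mean of at least 7. For Nanog the nearest genes were Topors (0.0471), Nr5a2 (0.0498) and Ddx58 (0.0588), and 22 genes lay within 0.1. Nr5a2, a nuclear receptor that can drive Pou5f1, read 8.13 and 7.96 in untreated and 7.45 and 7.56 in VPA cells. The other members had more company: 127 genes lay within 0.1 of Sall4, 198 of Zfp42, 210 of Sox2 and 487 of Pou5f1. Nearest to Sall4 were Cdc20 (0.0192), Ticrr (0.0321) and Sulf2 (0.0381), nearest to Zfp42 were Spred1, Dyrk1a and Scarb2, nearest to Sox2 were Clybl, Ywhaq and Bcap31, and nearest to Pou5f1 were Kri1, Tuba1a and Rrp9. No member was within 0.1 of another. The closest members were Nanog and Zfp42, at 0.106, and the farthest Sox2 and Sall4, at 0.394. With 4 arrays such distances describe these samples only.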

How the data were processed

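Total RNA of E14 cells was hybridised to 4 one-colour Affymetrix arrays, 2 per group. The labels call the samples replicates without naming separate cultures, so every p-value reflects the spread among the 4 arrays alone, and that spread may be technical. The deposited table holds log2 signals per probe set, which the authors made with RMA (background correction, quantile normalization and probe summary). The software was Affymetrix Expression Console 1.1, as the submitters' processing notes record. The set of arrays normalized jointly was not given in the sources used here.

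A gene was taken from probe sets whose platform annotation gives exactly 1 symbol, by the highest mean over the arrays, which gave 19938 genes from 21789 such probe sets. Groups came from the labels' titles. All 35556 probe sets were fitted with limma 3.58.1 in R 4.3.3 (lmFit and eBayes, treatment as the only term, two-sided, Benjamini-Hochberg over all probe sets, threshold 0.05), and the fit was tested on simulated data. The moderation added 2.93 to 2 residual degrees of freedom. Two-sided exact permutation tests were used for ratios between members. The alternatives were other scalings, a filter on dim probe sets, another moderation, a replicate block and leaving out each array. The number of arrays limits the precision.

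The members, gene lists, motifs and tests were chosen with earlier results of these data known. Named were the members, the 4 genes of smallest p in each list, a set of relatives, and the 3 genes nearest to each member in profile, leaving out predicted genes and small RNAs. Promoter windows and chromosomal order are those of RefSeq for GRCm38.p6.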

Additional observations from a re-analysis of the deposited data

How the results depend on the processing

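No member passed the adjusted test under any of the 11 alternatives, and Nanog, Sall4, Zfp42 and Pou5f1 stayed below 0 in all of them. For Nanog, Sall4 and Zfp42, which did not overlap, only the other scalings could have turned the sign. With 1 array left out, Nanog ranged from −0.59 to −0.37, Sall4 from −0.50 to −0.37, Zfp42 from −0.39 to −0.14, Pou5f1 from −0.23 to −0.0012 and Sox2 from −0.0127 to 0.41. Sox2 turned sign without VPA replicate 2. Among ratios, Nanog over Sall4 turned to 0.11 without VPA replicate 1 and 0.13 without untreated replicate 1 (lowest −0.22), and Pou5f1 over Zfp42 to −0.049 and −0.071 without the same arrays (highest 0.38). Pou5f1 over Sox2 turned to 0.012 without VPA replicate 2 (lowest −0.64) and Sall4 over Zfp42 to 0.022 without untreated replicate 2 (lowest −0.35). Pou5f1 over Nanog, which overlapped as well, kept its sign and ranged from 0.15 to 0.59. Of the ratios without overlap, Sox2 over Sall4 ranged from 0.37 to 0.90 and Sox2 over Zfp42 from 0.35 to 0.59. Nanog over Sox2 ranged from −0.79 to −0.57, Pou5f1 over Sall4 from 0.26 to 0.38 and Nanog over Zfp42 from −0.23 to −0.20. Leaving out an array could not have turned the sign of a ratio without overlap. The median of the network list ran from −0.17 to −0.078 with an array left out.

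With the replicate block, Nanog kept −0.48 at an adjusted p of 0.686 and Sall4 −0.43 at 0.679, and no call changed. Samples of the same number did not deviate together (correlation −0.0966 over probe sets), and the labels do not pair them. Counts over the whole table moved more. Probe sets at an unadjusted p under 0.05 were 1220 lower and 2049 higher, and with arrays shifted to one housekeeping mean 2296 lower and 910 higher, with 11871 lower without overlap where 6639 were. With dim probe sets left out, which tests fewer, they were 764 lower, and 3396 were lower without overlap. Leaving out 1 array gave 646 to 1718 lower and 1181 to 2524 higher at that p. With 1 array fewer, 11018 to 13066 probe sets were lower without overlap, since a group of 1 overlaps less. Each member has 1 probe set, so no other choice existed for them. With the dimmest probe set of each gene the network median was −0.11, and the other lists, the neighbours and the profile search were not rerun that way.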
